A study of Mus musculus with 12 samples.

Results

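Luminal mammary cells from females with floxed Wnt4 and a Cre transgene were compared with luminal cells from females with intact Wnt4. All arrays of the series labelled CD24 high were taken, 3 of Wnt4-deleted and 3 of WT cells, which made 6 of 12 arrays. Expression was compared for 19938 genes, each represented by 1 probeset, and every difference is Wnt4-deleted minus WT on the log2 scale. The WT group came from females of the genotype MMTV::Cre+ Wnt4 wt/wt mT/mG, and the Wnt4-deleted group from MMTV::Cre+ Wnt4 fl/fl mT/mG females, both 10 to 14 weeks old. Both groups therefore carried the Cre transgene and the mT/mG reporter, and their stated genotypes differed in the floxed Wnt4 alleles. According to the methods of the study, the lines with MMTV::Cre (line A) and with Wnt4 fl/fl had a C57BL/6JOlaHsd background. The reporter mice were purchased separately, purchased mice of mixed strain are also listed, and the background of the crosses was not stated. A strain difference between the groups, at any locus, was not examined here and cannot be told apart from the Wnt4 deletion. The Cre is driven by the MMTV promoter, which is active in mammary epithelium but not in every cell of it, and mT/mG switches a cell from red to green fluorescence once Cre has acted. Green cells were sorted by the surface protein CD24, and the notes on the samples mention no removal of blood or endothelial cells before the sort. A green cell is one in which the reporter recombined, which does not show that both Wnt4 alleles recombined in it. Notes given with the samples mention both mammary glands and mammary grafts, and which of them provided the cells was not settled here. Arrays are named by the number in their titles. The WT cells were hybridized to arrays 2, 10 and 14 and the Wnt4-deleted cells to arrays 4, 12 and 16, and each pair falls in a set of 4 consecutive title numbers (set 1, arrays 1 to 4; set 2, arrays 9 to 12; set 3, arrays 13 to 16). No label says that a set is an experiment, a mouse or a day, so the spread on which the p-values rest may be technical.

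Wnt4 is a secreted Wnt ligand made by the progesterone receptor-positive luminal cells of the mammary gland. These hormone-sensing cells respond to estrogen and progesterone and pass the signal on through secreted factors, among them Wnt4 and Rankl. Wnt4 acts on neighboring cells, in particular the myoepithelial layer, where it engages Frizzled and Lrp receptors and stabilizes beta-catenin. The CD24 high fraction therefore holds the cells that make the ligand.

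The CD24 high arrays carried the luminal signature of their label. The mean level of 7 general luminal markers (Krt8, Krt18, Krt19, Epcam, Cd24a, Cldn3, Gata3) was 11.3 to 11.6 over the 6 arrays, compared with 9.47 to 10.3 in the CD24 low arrays. The 3 measured hormone-sensing markers (Esr1, Pgr, Foxa1) averaged 8.72 to 9.53, against 6.42 to 7.02, and the 3 luminal progenitor markers (Kit, Elf5, Aldh1a3) 9.09 to 10.4, against 5.27 to 6.32. The mean level of 7 myoepithelial markers was 6.07 to 6.55 in WT and 6.27 to 7.05 in Wnt4-deleted arrays, against 10.9 to 11.4 in the CD24 low arrays. Means over the 6 arrays were 3.92 to 4.33 for 4 immune markers, 4.76 to 6.51 for 4 endothelial markers and 6.6 to 7.34 for 4 fibroblast markers, of which Dcn averaged 10.1 in WT and 9.68 in Wnt4-deleted cells. Array 2 stood furthest from the others, with correlations across genes of 0.971 to 0.981, compared with 0.977 to 0.993 among the other 5. The difference between the genotypes also varied most in set 1. Its SD across genes was 0.53, compared with 0.35 in set 2 and 0.26 in set 3. Across the 19938 genes the differences of set 1 correlated negatively with those of set 2 (r = -0.33) and set 3 (r = -0.16), while sets 2 and 3 correlated at r = 0.27. These are descriptions across genes, which are not independent replicates.

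The targeted gene was examined first. Wnt4 measured 7.42, 7.92 and 7.62 in WT arrays 2, 10 and 14, and 6.11, 6.46 and 6.78 in Wnt4-deleted arrays 4, 12 and 16. All 3 Wnt4-deleted arrays lay below all 3 WT arrays. The mean difference was -1.20 (SE 0.19, n = 3 per group), so the signal in Wnt4-deleted cells was 43.4% of the WT signal. Its mean of 6.45 lay beside 6.53 in WT and 6.38 in Wnt4-deleted CD24 low cells. The paper describes Wnt4 transcription as restricted to luminal cells with the progesterone receptor. The 43.4% is therefore no measure of remaining transcript, and the part of probeset background in it was not tested. In limma over all genes this gave an unadjusted p of 6.2e-05 and an adjusted p of 0.416, which does not pass the 0.05 threshold. A second Wnt4 probeset gave a smaller difference of -0.57. It read 6.37, 6.53 and 6.57 in WT arrays and 5.37, 5.65 and 6.74 in Wnt4-deleted arrays, so that array 16 was the highest of all 6. Which exons either probeset covers, and whether they lie in the deleted part of the gene, was not examined here. Because whole populations were measured, fewer cells with the transcript and less transcript per cell cannot be told apart. Of the 4 measured genes on either side of Wnt4 on chromosome 4 (C1qc, C1qa, Epha8 and Zbtb40; Cdc42, Cela3a, Cela3b and 1 predicted gene), none had non-overlapping groups, and their differences ran from -0.25 to 0.28.

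A single gene passed the test, 0.00502% of the genes. Nonagouti (symbol a) encodes the agouti signaling protein, a secreted antagonist of melanocortin receptors that is known for switching melanocytes in the hair follicle to yellow pigment. Its level was 5.25, 5.01 and 5.27 in WT arrays 2, 10 and 14, and 8.13, 8.0 and 8.24 in Wnt4-deleted arrays 4, 12 and 16. The groups were far apart, and the arrays within a group differed by little. Nonagouti was higher by 2.95 (SE 0.23, n = 3 per group, adjusted p = 0.0012 in limma) or 7.71-fold. It had 1 probeset, and its WT signal lay at percentile 36.3 of the array. Whether the groups carried the same nonagouti allele was not tested. The 3 sets gave 2.88, 2.99 and 2.97. In CD24 low cells of the same genotypes, possibly from the same animals, nonagouti was higher by 2.80. There, too, it was the only gene to pass (0.00502%). The 2 effects differed by -0.15 (CD24 low minus CD24 high, SE 0.33, adjusted p = 1.0). With arrays 9 to 16 alone the difference was 2.98 but the adjusted p was 0.155, with 2 arrays per group. Sets 2 and 3 were not left out in this way.

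Nothing else of the melanocortin system measured here passed the test. Of 14 measured members 1 was called. Mc1r, the receptor that agouti protein antagonizes in melanocytes, differed by -0.29, and Mc4r by 0.12. Atrn, a transmembrane protein needed for agouti action in skin, differed by 0.12, Mgrn1 by 0.04, and the precursor gene of the agonists, Pomc, by -0.05. Corin, a protease known to limit agouti activity in skin, was lower in every Wnt4-deleted array (5.37, 5.01 and 4.93 against 4.60, 4.8 and 4.73, difference -0.40, SE 0.14, adjusted p = 1.0 in limma). Of the 4 defining melanocyte markers, 3 were dim in all 6 arrays, with signals between percentiles 8.31 and 11.9 of the array for Dct, 7.99 and 10.9 for Tyr and 15.6 and 17.2 for Tyrp1. Pmel lay in the middle of the scale, between percentiles 47.6 and 54.5, with a mean of 6.10 in WT and 5.85 in Wnt4-deleted cells. The mean of the 4 markers was 4.13 to 4.32 in WT and 4.04 to 4.10 in Wnt4-deleted arrays. In the longer list of 12 melanocyte genes 2 were higher and 10 lower, 0 and 3 without overlap, and the set medians were -0.20, 0.03 and -0.07. Over all genes 2.04% were higher and 4.97% lower without overlap. The part of melanocytes in the nonagouti signal was not tested. The 3 skin keratinocyte markers averaged 4.82 to 4.96 in WT and 4.87 to 5.17 in Wnt4-deleted arrays. None of the 4 measured genes on either side of nonagouti on chromosome 2 (Zfp341, Chmp4b, Raly and Eif2s2; Itch, Dynlrb1, Map1lc3a and Pigu) had non-overlapping groups. Their differences ran from -0.13 to 0.16.

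The stretches of DNA before the annotated starts of both genes are shown because 1 carries the called change and the other is the gene that was targeted. They are the 250 bases before the start listed by RefSeq in GRCm38.p6, on the plus strand, with CG dinucleotides in capitals. Nonagouti, chr2:155013320-155013569, and Wnt4, chr4:137277385-137277634, read as follows.
Nonagouti: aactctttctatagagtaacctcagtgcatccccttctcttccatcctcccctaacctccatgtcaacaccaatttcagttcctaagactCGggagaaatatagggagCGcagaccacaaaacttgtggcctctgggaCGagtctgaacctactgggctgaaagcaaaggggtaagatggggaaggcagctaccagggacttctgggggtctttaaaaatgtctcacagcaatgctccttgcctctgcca
Wnt4: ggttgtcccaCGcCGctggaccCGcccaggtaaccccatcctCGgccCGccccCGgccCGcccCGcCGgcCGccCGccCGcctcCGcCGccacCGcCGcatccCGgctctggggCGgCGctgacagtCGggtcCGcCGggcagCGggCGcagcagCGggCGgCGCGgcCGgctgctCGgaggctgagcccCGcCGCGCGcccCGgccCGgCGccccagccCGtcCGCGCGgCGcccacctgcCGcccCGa
The nonagouti stretch holds 3 CG dinucleotides at 50.0% GC, and the Wnt4 stretch holds 44 at 85.2% GC. The median over 32817 such stretches is 6. Neither contains the motifs CTTTGAT or CTTTGTT, bound by TCF/LEF factors of the Wnt pathway, on either strand. These motifs occur in 3.21% and 5.03% of all stretches. TGTTCT, a short element recognized by the progesterone receptor, was also absent from both and occurs in 16.1%. The arrays do not bear on which start was used.

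**Figure D1:**
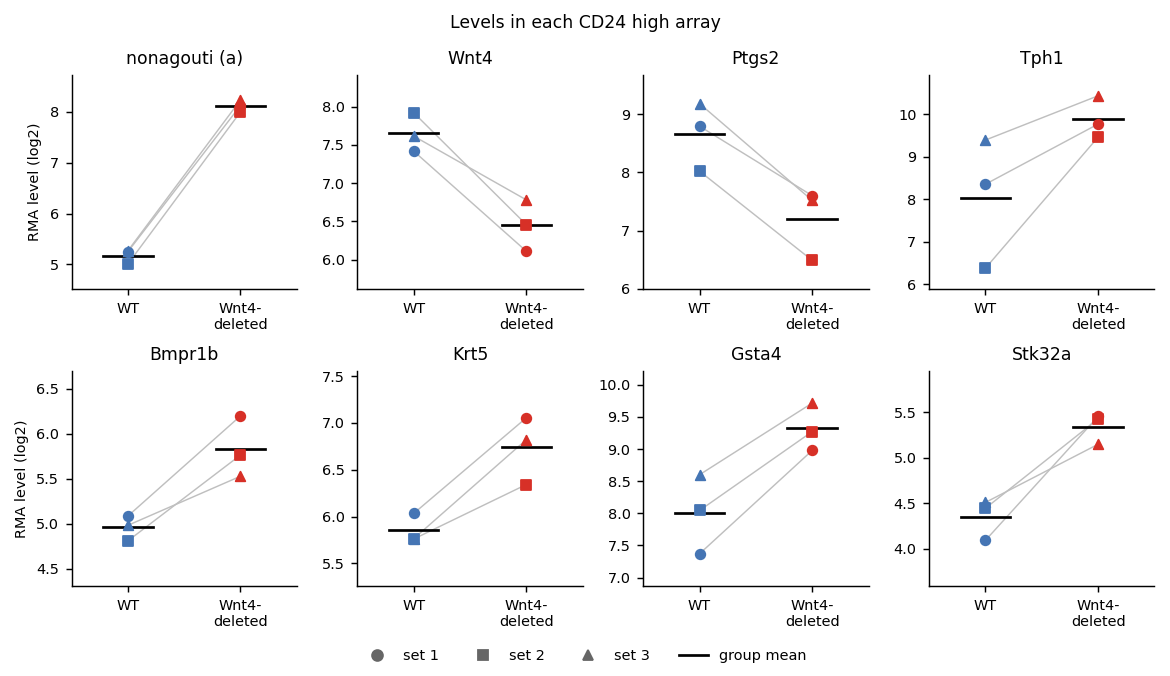
Level of 8 genes in each CD24 high array (RMA, log2; each panel has its own scale), with WT arrays in blue and Wnt4-deleted arrays in red. Symbols mark the 3 sets, gray lines join the arrays of a set and black bars are group means. Nonagouti lies at 5.01 to 5.27 in WT and 8.0 to 8.24 in Wnt4-deleted arrays, and none of the 8 genes overlaps between the groups.

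Nonagouti included, 406 genes were higher in all 3 Wnt4-deleted than in all 3 WT arrays (2.04%) and 990 were lower (4.97%). Together they were 1396 genes (7%). Labels assigned at random to 6 exchangeable arrays would separate a share of 0.1 of genes, so separation by itself sets no gene apart. Groups that do not overlap must have the same direction in each of the 3 sets, so this adds no evidence for these genes. With or without overlap, 1439 genes were higher (7.22%) and 2442 lower (12.2%) in all 3 sets. The balance between higher and lower depended on the scaling of the arrays. Higher genes made up 29.1% of the non-overlapping genes as deposited, and 45.2% after the arrays were centered on 1 median (633 higher, 767 lower). Before adjustment, 148 higher (0.742%) and 248 lower genes (1.24%) had p under 0.05 in limma. These 396 genes (1.99%) are fewer than the share of 0.05 that the threshold passes without any difference. The higher and lower counts became 200 and 180 after centering. Leaving out array 4 turned this balance to 319 higher and 262 lower genes, and leaving out array 14 raised both, to 322 and 348. Among all genes, 8650 (43.4%) had a positive and 11288 (56.6%) a negative mean difference. Counts of higher and lower members of each list are to be read against these shares. List counts without overlap are to be read against 2.04% higher and 4.97% lower. These shares are not matched for level. Without genes under the 40th percentile of level, 277 genes were higher and 446 lower without overlap. In that setting 93 higher and 79 lower genes had an unadjusted p under 0.05 in limma. Of the non-overlapping genes, 41 were at least 1.5-fold higher and 13 at least 1.5-fold lower. Within single sets, differences of at least 1.5-fold were more often positive in set 1 (2745 higher, 1545 lower) and more often negative in set 2 (695 and 903) and set 3 (272 and 320). The genes described next were picked from the non-overlapping genes by their p or their size, so their low p is part of the choice and only nonagouti passed the adjustment.

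**Figure D2:**
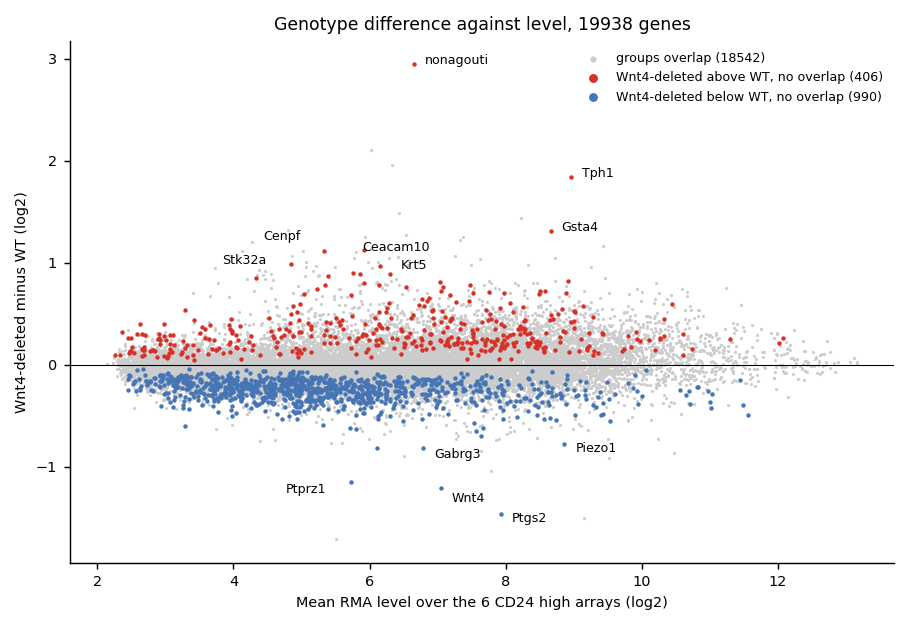
Difference between genotypes (Wnt4-deleted minus WT, log2) against the mean level over the 6 CD24 high arrays (RMA, log2) for 19938 genes. Colored points are the 406 higher and 990 lower genes whose groups do not overlap. Nonagouti stands alone at 2.95, and Wnt4 and Ptgs2 are among the few non-overlapping genes below -1.

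Ptgs2, the inducible cyclooxygenase that commits arachidonic acid to prostaglandin synthesis, had the lowest difference of the non-overlapping named genes. It read 8.79, 8.02 and 9.18 in WT arrays 2, 10 and 14, and 7.60, 6.49 and 7.52 in Wnt4-deleted arrays 4, 12 and 16. Every set gave a negative difference of more than 1 on the log2 scale. The mean difference was -1.46 (SE 0.38, n = 3 per group), or 36.2% of the WT level, with an unadjusted p of 0.0027 and an adjusted p of 1.0 in limma. Ptges, the terminal synthase for prostaglandin E2, differed by 0.08 and its receptor gene Ptger4 by -0.13. Of 21 measured members 7 were higher and 14 lower, 0 and 2 without overlap, and the median was -0.06 compared with -0.03 over all genes. In CD24 low cells Ptgs2 differed by 0.52. The effects in the 2 fractions differed by 1.98 (SE 0.54, unadjusted p = 0.0036, adjusted p = 1.0 in limma).

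Tph1, tryptophan hydroxylase of peripheral serotonin synthesis, had the highest difference after nonagouti among non-overlapping genes. It read 8.36, 6.38 and 9.40 in WT and 9.77, 9.46 and 10.4 in Wnt4-deleted arrays. The groups did not overlap, but the lowest Wnt4-deleted array lay just above the highest WT array, and the WT arrays themselves ranged widely (SD 1.53). The difference of 1.85 (SE 0.66, unadjusted p = 0.018, adjusted p = 1.0 in limma) came to 1.01 to 2.52 when 1 array was left out in turn or other settings were used. Gsta4, a glutathione transferase that clears lipid peroxidation products, read 7.37, 8.04 and 8.60 in WT and 8.98, 9.27 and 9.72 in Wnt4-deleted arrays, a difference of 1.32 (SE 0.32). The groups were separate, and each Wnt4-deleted array exceeded the WT array of its set by 1.12 to 1.61.

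Next to nonagouti the smallest p-values among higher genes belonged to Stk32a and Slc16a5. Stk32a, a serine/threonine kinase, read 4.09, 4.45 and 4.51 in WT and 5.46, 5.43 and 5.15 in Wnt4-deleted arrays. The difference was 0.99 (SE 0.16, unadjusted p = 6.3e-05, adjusted p = 0.416 in limma). Slc16a5, a monocarboxylate transporter, differed by 0.90 (SE 0.16, adjusted p = 0.666 in limma), with WT arrays at 5.25 to 5.33 and Wnt4-deleted arrays at 5.96 to 6.61. Stk32a was dim, with a WT signal at percentile 22.8 of the array. Acot2, a mitochondrial acyl-CoA thioesterase, differed by 0.70 (SE 0.13), and each Wnt4-deleted array (7.90, 7.70 and 8.04) exceeded every WT array (7.05, 7.20 and 7.28). Acot1, a close paralog whose probes may share signal with it, differed by 0.12. Cpt1a, which admits fatty acids to mitochondria, was non-overlapping as well and differed by 0.38. Among 19 measured acyl-CoA thioesterases and peroxisomal lipid genes 12 were higher, 2 without overlap, and 7 lower, 1 without overlap. Their median was 0.09.

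Other higher genes of this kind were Pgap1, Tesc, Ceacam10, Atp2c1, Arxes2, Tmem54 and Ralgps2, with differences of 0.43 (Atp2c1, a Golgi calcium pump) to 0.97 (Ceacam10, a cell adhesion molecule). Glrx, a glutaredoxin, differed by 1.12 on average, with 2.61 in set 1 and 0.43 and 0.34 in the other sets. Among lower genes Atoh8, a basic helix-loop-helix factor, differed by -0.59, Prame by -0.60 and the phosphatase gene Ptpre by -0.63. The Prame signal was near the bottom of the scale, at percentile 12.4 in WT arrays. Csrp1, a LIM protein of the actin cytoskeleton, read 11.8 in each of the 3 WT arrays against 11.5, 11.2 and 11.3. Gabrg3, a GABA receptor subunit, differed by -0.81 and Piezo1, a mechanosensitive ion channel, by -0.78. The tight junction gene Tjp3 differed by -0.44, the immediate-early gene Arc by -0.65, and Nfkbie, an inhibitor of NF-kappaB, by -0.70. Zdhhc14, Dcdc2a, Rccd1, Kcnd1, Calr4, Nhsl1 and Hdhd3 made up the rest, between -0.57 and -0.46. None of them passed the adjustment.

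Wnt4 had the lowest difference of all measured Wnt ligands. Of 19 measured ligands 5 were higher and 14 lower, 0 and 2 without overlap, with a median of -0.15 compared with -0.03 over all genes. Wnt2b, the other non-overlapping ligand, differed by -0.43. Wnt5a, a noncanonical ligand, read 6.67, 7.17 and 7.47 in WT and 6.81, 9.24 and 8.38 in Wnt4-deleted arrays. Its difference of 1.04 (SE 0.48, adjusted p = 1.0 in limma) thus came from arrays 12 and 16, while arrays 2 and 4 differed by little. Wnt5b and Wnt7b differed by -0.37 and -0.13. Wls, the carrier that brings Wnt proteins to the cell surface, was higher without overlap, at 7.52, 7.76 and 7.99 in WT and 8.36, 8.51 and 8.24 in Wnt4-deleted arrays, a difference of 0.61 (SE 0.16, unadjusted p = 0.0033, adjusted p = 1.0 in limma). Porcn, which acylates Wnt proteins, differed by -0.36.

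None of the measured receptors and targets of the pathway passed the test. Of 24 measured Wnt receptors and R-spondins 15 were higher and 9 lower, 4 and 2 without overlap, with a median of 0.03. The receptors Fzd4 and Ryk were higher without overlap (0.78 and 0.32), as was the co-receptor Lrp6 (0.14), and Fzd8 and the ubiquitin ligase gene Rnf43 were lower without overlap (-0.34 and -0.21). Lrp5 differed by 0.05. Axin2, the feedback inhibitor commonly read as a measure of beta-catenin activity, was 6.45, 6.11 and 6.02 in WT and 5.96, 5.72 and 5.82 in Wnt4-deleted arrays. The groups were separate, and the difference was -0.36 (SE 0.21, unadjusted p = 0.11, adjusted p = 1.0 in limma). Of 25 measured Wnt targets 5 were higher and 20 lower, 1 and 3 without overlap. Their median of -0.16 stayed between -0.17 and -0.10 under the other settings, which reuse the same arrays. The set medians were -0.20, -0.03 and -0.15. Fosl1, an AP-1 subunit, had the smallest p of them (difference -0.58, unadjusted p = 0.040), and Myc and Ccnd1 differed by -0.08 and -0.18. Of 16 secreted Wnt inhibitors 5 were higher and 11 lower, with a median of -0.14. Adamts18, which encodes a secreted protease, read 5.30, 4.59 and 4.68 in WT and 5.05, 5.07 and 5.06 in Wnt4-deleted arrays, so the WT values lay on both sides of the others. Its WT mean in CD24 low cells was 8.25.

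**Figure D3:**
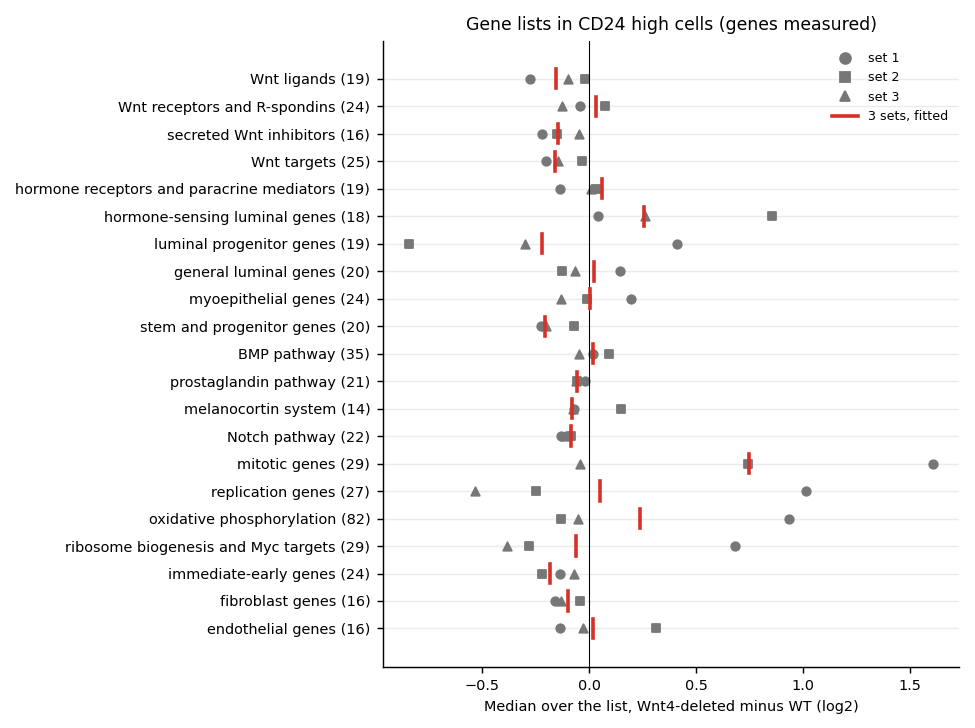
Median difference over each gene list (Wnt4-deleted minus WT, log2) in set 1 (circles), set 2 (squares) and set 3 (triangles), with the median of the fitted differences as a red bar and the number of measured genes in parentheses. Wnt lists lie within 0.3 of 0 in all sets, whereas mitotic genes range from -0.04 in set 3 to 1.61 in set 1.

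Hormone receptors were expressed in both genotypes. Pgr read 8.69, 8.70 and 9.32 in WT and 8.52, 9.85 and 9.88 in Wnt4-deleted arrays, and Esr1 read 8.80, 8.27 and 8.87 and then 8.66, 8.72 and 8.97. The groups overlapped for both genes, with differences of 0.51 and 0.13. Tnfsf11, which encodes the paracrine factor Rankl, differed by -0.21. Its receptor gene Tnfrsf11a was 6.76, 6.42 and 6.02 in WT and 5.89, 5.96 and 5.90 in Wnt4-deleted arrays, apart from each other by a narrow margin (difference -0.48, SE 0.21, adjusted p = 1.0 in limma). Of 19 measured hormone receptors and mediators 10 were higher and 9 lower, with a median of 0.06.

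Hormone-sensing genes leaned upward and luminal progenitor genes downward, mainly in set 2. Of 18 measured hormone-sensing genes 15 were higher and 3 lower, 2 and 1 without overlap, and the median was 0.26. The set medians were 0.04, 0.85 and 0.26. Next to Tph1, the transcription factor gene Msx2 was higher without overlap, with 7.67, 7.12 and 7.75 in WT and 8.03, 8.01 and 8.0 in Wnt4-deleted arrays (difference 0.50, SE 0.17). Prom1, a surface marker of hormone-sensing cells, read 7.87, 8.27 and 8.46 in WT and 7.93, 10.1 and 9.74 in Wnt4-deleted arrays. As for Wnt5a, array 4 remained within the WT range, and the difference was 1.05 (SE 0.44). Of 19 measured luminal progenitor genes 2 were higher and 17 lower, 0 and 2 without overlap. Their median of -0.22 was made up of 0.41 in set 1, -0.84 in set 2 and -0.30 in set 3, and it became 0.00 without array 10. Aldh1a3, an aldehyde dehydrogenase of luminal progenitors, differed by -0.72, Kit by -0.22 and Elf5 by -0.22, all with overlapping groups. The proportion of the 2 luminal cell types in each sample was not measured, and its part in these and other differences was not tested.

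**Figure D4:**
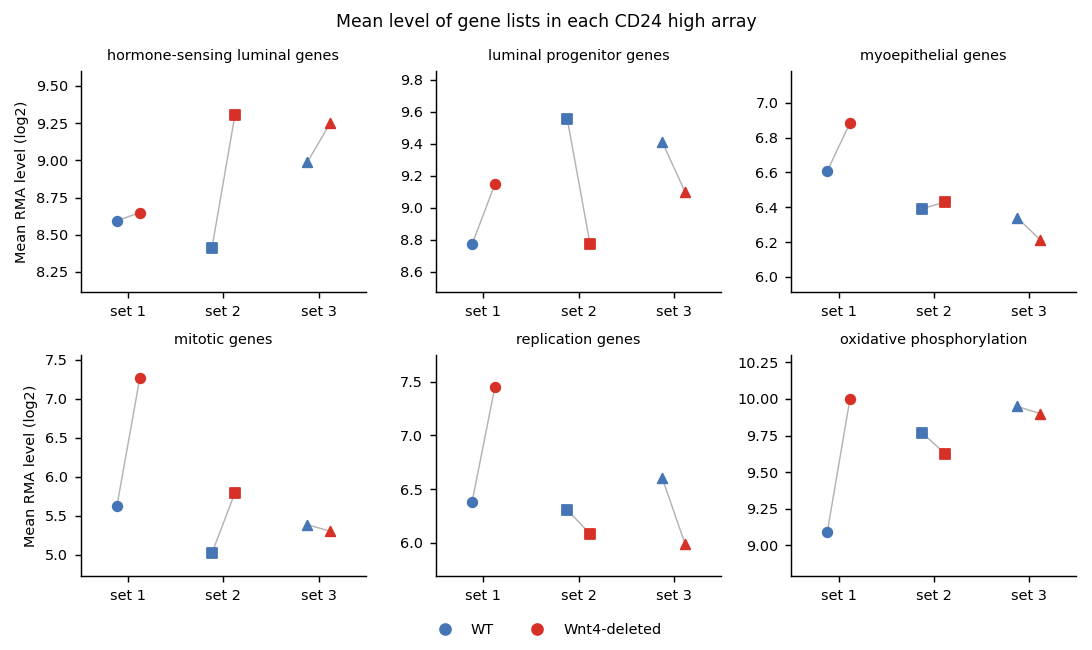
Mean level of 6 gene lists (RMA, log2) in each CD24 high array, with WT in blue and Wnt4-deleted in red within each set; each panel has its own scale. Set 1 runs against sets 2 and 3 for luminal progenitor genes, replication genes and oxidative phosphorylation, and array 4 has the highest level of mitotic genes at 7.27.

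Of the key myoepithelial genes, Krt5 and Krt14 had the smallest p. Krt5, a keratin of the basal layer, read 6.03, 5.76 and 5.76 in WT and 7.05, 6.34 and 6.82 in Wnt4-deleted arrays. The groups were separate, with a difference of 0.89 (SE 0.21, unadjusted p = 0.0014, adjusted p = 1.0 in limma). Its partner Krt14 differed by 0.65 (SE 0.26), with array 16 (7.37) below WT array 2 (7.67). These levels remained far below those of CD24 low WT cells, where Krt5 averaged 11.7 and Krt14 11.8. The basal transcription factor gene Trp63 differed by 0.40, and the contractile genes Acta2, Cnn1 and Myh11 by 0.10, -0.23 and -0.01, each with overlapping groups. Jag1, a Notch ligand, was the other non-overlapping gene of the list (0.40). The part of myoepithelial cells in the sorted fraction in these values was not tested. The whole list of 24 had 12 members higher and 12 lower, 2 and 0 without overlap, and a median of 0.00. Stem and progenitor genes (20 measured) had a median of -0.21, with 4 higher and 16 lower. Without overlap 0 were higher and 4 lower, where 2.04% and 4.97% of all genes were.

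In the BMP pathway the type I receptor gene Bmpr1b stood out. It read 5.09, 4.81 and 4.98 in WT and 6.20, 5.76 and 5.53 in Wnt4-deleted arrays, a difference of 0.87 (SE 0.16, unadjusted p = 0.00017, adjusted p = 0.690 in limma). Bmpr1a, a related receptor, was also non-overlapping, but with a difference of 0.20, and Bmpr2 differed by 0.11. The ligand genes Bmp2 and Bmp4 differed by -0.48 and 0.08, and the target Id1 by 0.00. Of 35 measured members 20 were higher and 15 lower, 3 and 2 without overlap, with a median of 0.02. Notch1, a receptor that favors the luminal fate, was tightly grouped at 9.01, 8.91 and 8.83 in WT and 8.38, 8.36 and 8.44 in Wnt4-deleted arrays (difference -0.52, SE 0.23, unadjusted p = 0.046, adjusted p = 1.0 in limma). Over 22 Notch pathway genes the median was -0.08, with 1 higher and 3 lower without overlap. Among 26 basement membrane genes Npnt, a ligand of integrin alpha8 beta1, was higher without overlap (0.66), 2 were lower without overlap, and the median was -0.06. Medians of the EGF, FGF and YAP and TAZ lists were -0.05, -0.05 and 0.01.

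Levels of cell cycle genes varied widely among the arrays of a genotype. All 29 measured mitotic genes had a positive mean difference, with a median of 0.74, but only 2 (Cenpf and Dlgap5) had non-overlapping groups and 0 were called. The mean level of the list was 5.63, 5.03 and 5.39 in WT arrays 2, 10 and 14, and 7.27, 5.79 and 5.30 in Wnt4-deleted arrays 4, 12 and 16. Array 4 was the highest and array 16 lay within the WT range. In sets 1, 2 and 3 the number of mitotic genes with a positive difference was 29, 29 and 10. Without array 4 the median was 0.15. Mki67 read 7.17, 5.44 and 6.02 in WT and 8.78, 6.84 and 6.04 in Wnt4-deleted arrays. The 27 measured replication genes, by contrast, had set medians of 1.01, -0.25 and -0.53 and a median of 0.05, and Pcna and Mcm2 differed by -0.05 and 0.00.

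The same contrast between sets appeared in housekeeping lists. Of 82 oxidative phosphorylation genes 75 had a positive mean difference (median 0.24), yet the set medians were 0.93, -0.13 and -0.05, and the median was -0.02 without array 2. Ribosome biogenesis and Myc targets gave 0.68, -0.28 and -0.39, and genes of cholesterol and fatty acid synthesis 0.54, -0.24 and -0.27. Ribosomal proteins gave 0.32, -0.22 and -0.03. WT array 2 had the lowest mean level of oxidative phosphorylation genes, 9.09 compared with 9.63 to 10.0 in the other 5 arrays. Immediate-early genes, which respond to tissue dissociation, were lower in 23 of 24 cases, 2 without overlap, with a median of -0.18 and set medians of -0.14, -0.22 and -0.07. Fos and Egr1 differed by -0.21 and -0.19, with overlapping groups. How far these array-to-array differences enter the single-gene values was not tested.

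Markers of other cell types were also examined. Fibroblast genes had a median of -0.10, and of 16 measured 0 were higher and 4 lower without overlap (Thy1, Col5a1, Pdgfrb and Col1a2), where 4.97% of all genes were lower without overlap. Thy1, with the largest difference of them (-0.81), read 6.0, 6.28 and 7.24 in WT and 5.82, 5.77 and 5.50 in Wnt4-deleted arrays. Endothelial genes had a median of 0.02 with no separate member. Their mean level was 6.06 and 6.38 in arrays 10 and 12 of set 2, above 5.26 to 5.58 in the other 4 arrays. Immune genes had a median of -0.12 (2 higher, 18 lower), with 2 of the lower ones, among them Cd68, without overlap. All 3 measured erythroid genes were lower, 2 of them without overlap, with a median of -0.13. Adipocyte, skeletal muscle and milk genes had medians of -0.02, -0.09 and -0.05, interferon and MHC class II genes -0.03 and -0.05. Of the skeletal muscle genes 0 were higher and 17 lower, 0 and 1 without overlap. The part of these cell types in other differences was not tested.

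Finally, the genotype effect in CD24 high cells was compared with that in CD24 low cells, on 6 other arrays. These fall in the same sets of title numbers. The labels do not say whether the 2 fractions of a set came from the same animals, so the 2 comparisons may not be independent. The difference of effects passed for 0 genes in limma (0%), and 273 genes (1.37%) had an unadjusted p under 0.05. That is fewer than the share of 0.05 that the threshold passes without any difference. Of the 30 genes with the smallest p in CD24 high cells, 22 had the same sign in CD24 low cells and 4 (nonagouti, Bmpr1b, Tjp3 and Nhsl1) had non-overlapping groups in the same direction there. Over all genes 55.9% had the same sign in both fractions, and in CD24 low cells 2.65% were higher and 4.12% lower without overlap. These 30 were chosen for a low p in CD24 high cells, so the 2 fractions are not compared on equal terms. For Wnt4 itself the difference was -1.20 in CD24 high and -0.14 in CD24 low cells, where the WT level was already 6.53 (difference of effects 1.06, SE 0.27, unadjusted p = 0.0025, adjusted p = 1.0). Krt5 differed by -0.23 in CD24 low cells, Stk32a by -0.07 and Slc16a5 by -0.11. Prame, Golim4, C2cd2 and Pi15 were the other genes with the smallest unadjusted p for a more positive effect in CD24 low cells, and Cd164l2, Acot2 and Krt5, with Stk32a and Slc16a5, for a more positive effect in CD24 high cells.

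**Figure D5:**
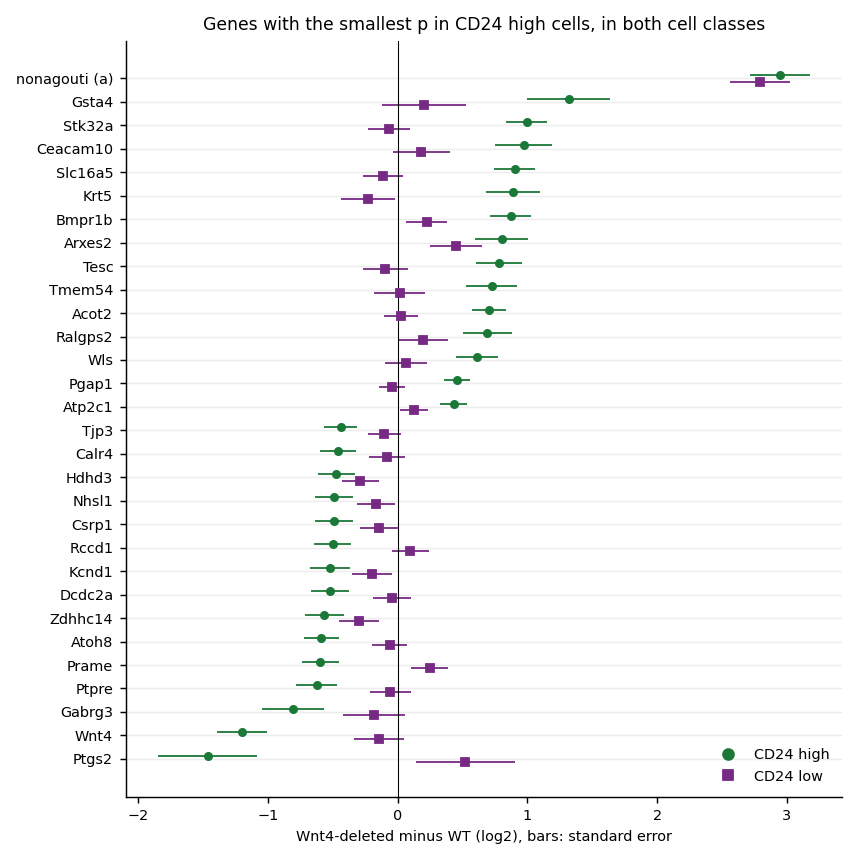
Difference between genotypes (Wnt4-deleted minus WT, log2) of the 30 genes with the smallest p in CD24 high cells, in CD24 high (green circles) and CD24 low cells (purple squares), with bars of 1 standard error from the fit over 12 arrays. Nonagouti is near 3 in both fractions, while most of the others lie closer to 0 in CD24 low cells, in which they were not selected.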

How the data were processed

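RNA of sorted GFP+ mouse mammary cells was hybridized to 12 Affymetrix gene arrays, 1 per sample. Per the labels, total RNA was amplified with the Ovation Pico WTA V2 kit and biotinylated. RMA was run by the authors in the Affymetrix software Expression Console 1.1.2800, and the log2 levels they deposited follow background correction, quantile normalization and median polish (range 1.62 to 13.8). Such normalization sets arrays to a common distribution and hides global shifts. Precision is limited by the number of arrays, which carry no depth. Array medians were 5.64 to 5.82.

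Of 35556 probesets, 21789 with 1 gene symbol were kept; 1621 with several symbols and 12146 without an entry were left out. For 999 genes with more probesets the probeset highest on average across the 12 arrays stood for the gene. limma 3.58.1 in R 4.3.3 fitted 4 group means over 12 arrays (lmFit, eBayes; 11.1 moderated degrees of freedom), two-sided, with Benjamini-Hochberg adjustment over 19938 genes and a threshold of 0.05. An exact permutation test of 3 against 3 arrays cannot go below p = 0.1. The model was tested on simulated data. RefSeq provided promoter sequences and gene order.

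The members and gene lists were chosen with earlier results of these data known. Genes were named by rule: Wnt4 and called genes; among non-overlapping genes the 15 smallest p and 8 largest differences in each direction; key members and up to 3 others per list; 4 neighbors on either side of Wnt4 and nonagouti; and 5 genes per direction for the difference of effects. Predicted and small-RNA genes were counted only. Porcn, Fzd8, Rnf43, Bmp4, Id1, Acot1, Pdgfrb and Col1a2 were added after their values were seen. Alternatives were other probeset, scaling, filter, prior, weight and block settings, leaving out each array, and, chosen after seeing the data, arrays 9 to 16 alone.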

Additional observations from a re-analysis of the deposited data

Results flagged for a closer look

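Ptprz1, a receptor-type tyrosine phosphatase gene, moved in opposite directions in the 2 fractions without overlap between the groups in either. In CD24 high cells it read 5.73, 7.36 and 5.81 in WT and 4.58, 5.2 and 5.69 in Wnt4-deleted arrays (difference -1.15, SE 0.43), and in CD24 low cells the difference was 0.77. The effects differed by 1.91 (CD24 low minus CD24 high, SE 0.60, unadjusted p = 0.0089, adjusted p = 1.0 in limma). In CD24 high cells the margin was narrow, with the lowest WT array at 5.73 and the highest Wnt4-deleted array at 5.69. The set differences were -1.16, -2.16 and -0.12. Such opposite separation occurred for 24 of 19938 genes, and separation in the same direction in both fractions for 87. Over all genes 2.04% were higher and 4.97% lower without overlap in CD24 high, and 2.65% and 4.12% in CD24 low cells. Whether 24 exceeds what unrelated fractions would give was not tested.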

How the results depend on the processing

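Nonagouti was the only call in CD24 high cells under each planned setting with adjusted p-values, with differences of 2.86 to 3.05. With arrays 9 to 16 alone it differed by 2.98 at an adjusted p of 0.155, and limma called 0 genes in CD24 high and 0 in CD24 low cells, compared with 972 and 1494 at an unadjusted p under 0.05. In the full data 396 genes had an unadjusted p under 0.05 in CD24 high cells. The non-overlapping genes numbered 723 without genes under the 40th percentile of level, where fewer genes were tested. Wnt4 kept its sign throughout (-1.37 to -0.89), and its adjusted p ranged from 0.084 to 1.0. The named genes described by p or size kept their sign and their side of the threshold in 598 of 599 recalculations, the exception being nonagouti above. This count was largely fixed by the choice of genes. Their groups do not overlap, so leaving out an array could not turn their sign. All but nonagouti were above the threshold from the start. A fixed block for the 3 sets changed no call. Deviations of arrays of the same set correlated across genes at r = -0.12, -0.12 and 0.29 in sets 1, 2 and 3. Arrays of different sets gave r from -0.41 to 0.36, so the value of set 3 does not show a pairing. The sets were not treated as pairs in the fit. Array weights, which favored array 16, raised the genes with an unadjusted p under 0.05 to 1750; the cause was not tested. Leaving out 1 array gave 333 to 670, the highest without array 14. Precision rests on 3 arrays per group with 8 residual degrees of freedom, and dim genes such as Prame and Stk32a lie close to the background of the arrays.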
